A study of Mus musculus with 237 samples.

Results

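The genes described here are 9 genes of the retinoid pathway, chosen by name from the 55335 genes counted in single cells of mouse embryonic skin. They are the retinal dehydrogenases Aldh1a2 and Aldh1a3, the cellular retinoic acid binding proteins Crabp1 and Crabp2, the retinoic acid hydroxylase Cyp26b1, the retinal reductase Dhrs3 and the retinoic acid receptors Rara, Rarb and Rarg. The study asked how epidermal cells that lack p63, the transcription factor on which the stratified epidermis depends, differ from wild-type (WT) keratinocytes. Cells were taken at E14.5 from 10 C57BL/6N embryos carried by ICR surrogate mothers, 3 WT embryos (66 cells) and 7 p63 knockout (KO) embryos (171 cells). The knockout was made by CRISPR-Cas9 in the zygotes themselves, so each KO embryo was a founder, and the embryos of both genotypes were otherwise of the same strain. WT epidermis was freed from the dermis with dispase before trypsin, whereas KO fetuses were digested directly with trypsin. Sorted cells were negative for propidium iodide, CD45, TER119 and CD140a, the product of Pdgfra. The paper describes a qPCR screen before sequencing, for Krt5 (WT) or Krt8 (KO) and against amplified Pdgfra. Part of the sequenced cells do not match this screen, as the marker values below show.

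Only 16 of the 237 columns of counts were matched to a labelled cell here. They are 11 cells labelled basal layer (WT-KCB), 1 labelled intermediate layer (WT-KCI) and 4 labelled K17 high (WT-KCP), all from the WT embryo WT01. The paper annotated the WT-KCP cells by hand as keratinocytes of the periderm. All 237 columns were therefore also read as cells of 1 pooled sample, with genotype and embryo unknown, and sorted by the keratins and collagens they expressed. By the labels, all 70 fibroblasts came from 1 KO embryo, the 45 WT-KCB cells from WT embryos and the 50 surface ectoderm remnant cells from KO embryos, so differences between the states cannot be told apart from those of genotype, embryo and digestion. A basal-keratin cell had at least 300 CPM (counts scaled to a cell total of 1000000) of Krt5 and Krt14 and under 100 of Krt8. A simple-keratin cell had at least 100 CPM of Krt8 and Krt18 and under 100 of Krt5 and Krt14. A collagen-high cell had at least 100 CPM of Col1a1 and Col3a1. There were 54 basal-keratin, 66 simple-keratin and 79 collagen-high cells, 1 cell met both of the last rules, and 39 cells met no rule. Since neither the pool nor embryo WT01 has a replicate, no p-value or SD was computed from cells. Intervals of ratios are over reads and cover counting error only, and as the libraries carried no molecular identifiers PCR copies of a molecule count as separate reads. Intervals of shares are binomial over the cells of the pool. Cells are not replicates of a state, so both kinds describe these cells and are no test between states. In a summed level, fewer cells with a gene and less RNA per cell cannot be told apart.

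Retinoic acid is made from retinol in 2 oxidation steps. Retinol is first turned into retinal, which Dhrs3 can reduce back, and retinal is then oxidised irreversibly to retinoic acid by the Aldh1a enzymes. Inside the cell retinoic acid is held by the Crabp proteins, is broken down by the Cyp26 enzymes, or enters the nucleus, where the receptors bind DNA together with retinoid X receptors. In skin the pathway is known for its part in epidermal differentiation and in the patterning of hair follicles and dermis.

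The columns were deep, with totals of 2702464 to 19197937 counts, and the median totals were 7822728 in basal-keratin, 7277219 in simple-keratin and 6094431 in collagen-high cells. Markers that the rules did not use followed the states. Col17a1, a hemidesmosome collagen of basal keratinocytes, had 690 CPM in the summed basal-keratin cells and 0.695 in simple-keratin cells. Epcam, an epithelial adhesion molecule, had 1181 CPM in simple-keratin and 1.93 in collagen-high cells, and Twist2, a dermal transcription factor, had 196 CPM in collagen-high and 0 in basal-keratin cells. Trp63, the gene targeted in the KO embryos, had a median of 498 CPM in basal-keratin cells (lowest 166), 80.7 in simple-keratin cells and 0 in collagen-high cells. Pdgfra, whose product was sorted against, reached 10 CPM in 56 of 58 collagen-high cells without muscle genes Des, Myod1 or Myog (median 328 CPM). It reached 10 CPM in 10 of 20 collagen-high cells with them (median 15.3 CPM). The summed level of 6 simple-epithelium markers, Krt8 among them, reached 10 CPM in 5 of 79 collagen-high cells. Some cells also carried markers of other cell types. The summed level of 8 fibroblast markers ran from 2.95 to 2948 CPM in basal-keratin and from 1.76 to 9123 CPM in simple-keratin cells. It ran from 2523 to 131573 CPM in collagen-high cells. The markers include Col1a1 and Col3a1, so the collagen rule itself raises this sum and the range is no separate check of that state. Haemoglobin transcripts (Hba-a1 or Hbb-bt) reached 10 CPM in 15 simple-keratin cells, and the myogenic markers Des, Myod1 or Myog in 20 collagen-high cells. The summed level of 3 blood markers, haemoglobin among them, reached 400781 CPM in the highest simple-keratin cell. Col1a2 or Lum, 2 fibroblast genes, reached 10 CPM in 15 of the 65 simple-keratin cells outside the cell that met both rules. They did so in 11 basal-keratin cells, and Krt1 with Krt10, keratins of suprabasal cells, reached 100 CPM in 3 basal-keratin cells. Their part in the results was not tested, and the values without these cells are given where a call depended on them.

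The 9 genes lie on 8 chromosomes of GRCm38, Aldh1a2 and Crabp1 both on chromosome 9. Crabp1 (chr9:54764748-54773110, plus strand) is the shortest by exon length with 802 bp and Cyp26b1 (chr6:84571414-84593908, minus strand) the longest with 5352 bp. Of the genes, only Rarb (chr14:16430839-16819156, minus strand) shares exon sequence with other annotated genes, 1793 bp with Top2b and a shorter stretch with Gm48162, both on the opposite strand.

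Rarb is itself a textbook target of retinoic acid, through a direct repeat of the receptor half-site. Its RefSeq promoter is shown because the levels of Rarb differed between states. The capitals mark the repeat, found by a search on both strands for the letters GNTCA, 6 letters of any kind and again GNTCA. The first letter of the second half-site was left free and counts among the 6.
Rarb, GRCm38.p6, chr14:16575506-16575535, minus strand: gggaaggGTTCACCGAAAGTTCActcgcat
The repeat runs from 52 to 37 bases before the RefSeq start and lies in the annotated 5′ untranslated region of 2 Rarb transcripts. RefSeq promoters of 300 bp were given for 7 of the 9 genes (all but Aldh1a3 and Crabp2), 13 promoters in all, and this was the single match among them, while 0.861% of all 32851 promoters of that length held the motif. The letters GNTCA repeated after 3 or 2 letters, as in the repeats with shorter spacers, had 0 matches in the 13 promoters and matches in 1.117% and 1.26% of all promoters. A match is a description of letters, and no binding was measured.

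**Figure D1:**
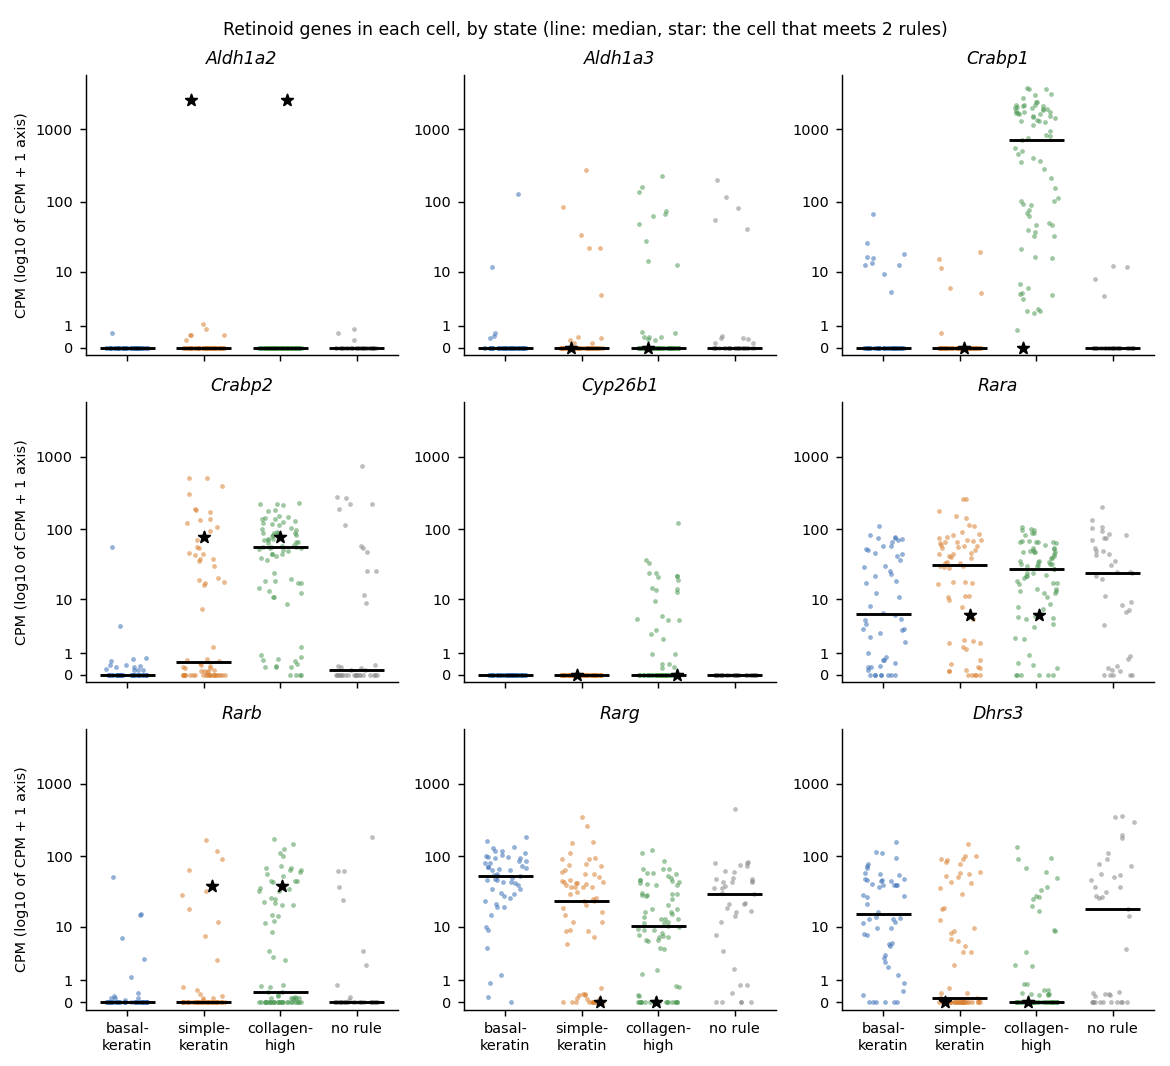
Level of each of the 9 genes in every cell (vertical axis, CPM on a log10 scale of CPM + 1) by state, with a line at the median. The star is the 1 cell that met both the simple-keratin and the collagen rule and is drawn in both columns. Crabp1 has a median of 707 CPM in collagen-high cells and of 0 in the other states.

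Transcripts of the retinal dehydrogenases Aldh1a2 and Aldh1a3 were found in few cells. Aldh1a2 was high in 1 cell of the 237, at 2510 CPM (17912 counts), and at 1.14 CPM or less in each of the others. That cell was the one that met both the simple-keratin and the collagen rule, so it gave Aldh1a2 31.6 CPM in the summed simple-keratin cells and 37.4 in the collagen-high cells. Without it the summed levels were 0.0428 CPM in 65 simple-keratin cells and 0 in 78 collagen-high cells, where a count of 0 allows up to 0.00636 CPM. Aldh1a3 had a median of 0 CPM in every state. It reached 10 CPM in 2 of 54 basal-keratin cells (3.70%, exact 95% interval 0.452 to 12.7), 5 of 66 simple-keratin cells (7.58%, 2.51 to 16.8) and 10 of 79 collagen-high cells (12.7%, 6.24 to 22.05). In the cells where Aldh1a3 was on it was often abundant, up to 128 CPM in basal-keratin, 278 CPM in simple-keratin and 228 CPM in collagen-high cells. Of the basal-keratin sum of 2.58 CPM, most came from 1 of the 3 cells with Krt1 and Krt10, and the other 51 cells summed to 0.213 CPM.

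Crabp1 marked the collagen-high cells. It ranged from 0 to 3689 CPM there, with a median of 707, and 67 of 79 cells were at 10 CPM or more (84.8%, 74.97 to 91.9). In basal-keratin cells the highest value was 68.4 CPM and 8 of 54 cells were at 10 CPM or more, and in simple-keratin cells the highest was 19.9 CPM with 3 of 66 cells. Among basal-keratin cells, 4 of the 11 with Col1a2 or Lum and 4 of the 43 without them reached 10 CPM. The lowest collagen-high cells thus fell within the range of the keratin states, although the medians of the latter were 0. The summed level was 1031 CPM in collagen-high cells, 314-fold that in basal-keratin cells (3.28 CPM, interval of the ratio 299 to 331) and 1634-fold that in simple-keratin cells (0.631 CPM, 1473 to 1817). Within the collagen-high cells the spread was wide and followed other genes. In the 20 cells with Des, Myod1 or Myog the median of Crabp1 was 18.8 CPM and 11 cells reached 10 CPM, whereas in the 58 cells without them the median was 1444 CPM and 56 cells reached it. Twist2 differed in the same direction, with medians of 19.03 and 243 CPM.

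Crabp2, which passes retinoic acid to the receptors in the nucleus, was present outside the basal-keratin cells. In basal-keratin cells it ranged from 0 to 57 CPM with a median of 0, and 1 of 54 cells was at 10 CPM or more (1.85%, 0.0469 to 9.89). That cell was 1 of the 11 basal-keratin cells with Col1a2 or Lum, and the 43 without them reached at most 3.78 CPM. In simple-keratin cells it ranged from 0 to 511 CPM with a median of 0.526, and 28 of 66 cells were at 10 CPM or more (42.4%, 30.3 to 55.2). In collagen-high cells it ranged from 0 to 228 CPM with a median of 55.5, and 63 of 79 cells were at 10 CPM or more (79.7%, 69.2 to 88.0). The simple-keratin cells were divided, since of the 65 outside the cell that met both rules 22 were at 0, 16 lay between 0 and 10 CPM, and 11 were at 100 CPM or more. The division was present with and without Col1a2 or Lum, as 9 of 15 cells with these genes and 18 of 50 without them reached 10 CPM of Crabp2. The summed levels of 58.6 CPM in simple-keratin and 67.4 CPM in collagen-high cells differed 1.15-fold (1.13 to 1.17 by counting error).

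Cyp26b1 was counted in collagen-high cells alone. It had 0 counts in all 54 basal-keratin, 66 simple-keratin and 39 unruled cells, which allows up to 0.00649, 0.00529 and 0.00956 CPM in the respective sums. In collagen-high cells it ranged from 0 to 119.5 CPM with a median of 0, and 13 of 79 cells were at 10 CPM or more (16.5%, 9.06 to 26.5). All 13 were also at 10 CPM or more of Crabp1, as were 67 of all 79 collagen-high cells. The summed level of 5.36 CPM was at least 826-fold higher than in basal-keratin cells and at least 1014-fold higher than in simple-keratin cells, taking 3 counts over the group as the floor. Of the other enzymes that clear retinoic acid, Cyp26a1 was at 200 CPM in 1 simple-keratin cell and Cyp26c1 had 0 counts in each state.

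**Figure D2:**
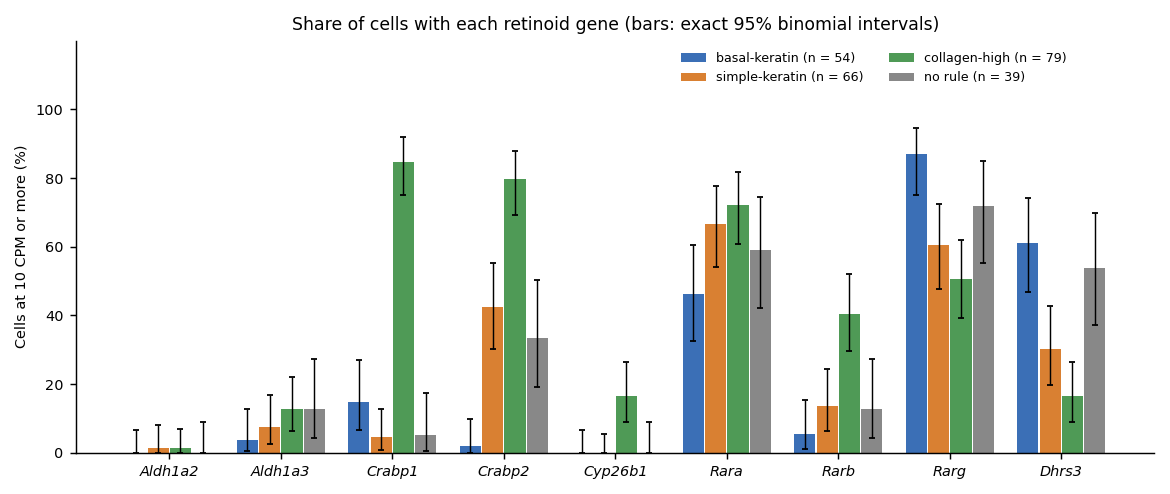
Share of cells at 10 CPM or more for each gene (vertical axis, percent) in basal-keratin, simple-keratin and collagen-high cells and in cells that met no rule. Error bars are exact 95% binomial intervals over cells of 1 pooled sample. Crabp1 reached 84.8% in collagen-high cells, and Rarg 87.0% in basal-keratin cells.

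Rarg, the receptor known as the main one of the epidermis, was highest in basal-keratin cells. It ranged from 0 to 187 CPM there with a median of 53.9, from 0 to 347 CPM in simple-keratin cells with a median of 23.5, and from 0 to 122 CPM in collagen-high cells with a median of 10.3. The ranges overlapped fully, and the shares of cells at 10 CPM or more were 87.0% (75.1 to 94.6), 60.6% (47.8 to 72.4) and 50.6% (39.1 to 62.1). The summed level in basal-keratin cells, 61.2 CPM, was 1.54-fold that in simple-keratin cells (1.52 to 1.57) and 2.85-fold that in collagen-high cells (2.78 to 2.91). The 3 basal-keratin cells with Krt1 and Krt10 were low, at 0.174, 1.40 and 9.81 CPM. In contrast, the 6 unruled cells with Krt1 and Krt10 had 21.5 to 80.2 CPM.

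Rara was counted in most cells of every state. Its medians were 5.89 CPM in basal-keratin cells (0 to 111), 31.9 in simple-keratin cells (0 to 262) and 27.3 in collagen-high cells (0 to 106). The shares at 10 CPM or more were 46.3% (32.6 to 60.4), 66.7% (53.99 to 77.8) and 72.2% (60.9 to 81.7). Summed levels were 24.4, 43.98 and 30.8 CPM.

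Rarb was scarce in keratin cells. In basal-keratin cells it ranged from 0 to 51.7 CPM and 3 of 54 cells were at 10 CPM or more, in simple-keratin cells from 0 to 168 CPM with 9 of 66 cells, and in collagen-high cells from 0 to 177 CPM with 32 of 79 cells. The shares were 5.56% (1.16 to 15.4), 13.6% (6.43 to 24.3) and 40.5% (29.6 to 52.1). Summed levels were 2.15, 12.8 and 21.7 CPM. In simple-keratin cells the summed level differed with markers of other cells, whose part was not tested. The 15 cells with Col1a2 or Lum summed to 35.95 CPM and the 50 without them to 5.20 CPM, with 4 cells at 10 CPM or more on each side. The 15 cells with haemoglobin transcripts summed to 23.4 CPM and the 50 without them to 6.62 CPM, with 3 and 5 such cells. Both splits share the highest cell, at 168 CPM, on the side with the markers. Without it all simple-keratin cells summed to 9.38 CPM. Because its exons overlap Top2b and the strand setting of the counting is not given in the sources used here, the counts of Rarb are less certain than the others, and 23.6% of its values above 0 were not whole numbers, against 0% to 4.55% in the other 8 genes. Top2b was highest in the state where Rarb was lowest, with 480 CPM in summed basal-keratin, 271 in simple-keratin and 352 in collagen-high cells, and the rank correlation between these genes over cells lay between -0.14 and 0.02 within the states.

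Set per exon length (RPKM, that is CPM per kilobase of exon), the balance of the receptors differed between states. In basal-keratin cells Rarg made up 70.6% of the summed receptor level, Rara 27.4% and Rarb 2.004%. In simple-keratin cells the shares were 42.7%, 46.2% and 11.1%, and in collagen-high cells 31.1%, 43.5% and 25.4%. Cell by cell, only cells with at least 1 receptor at 10 CPM or more were considered. Among them Rarg was the highest receptor in 38 of 52 basal-keratin cells, 23 of 57 simple-keratin cells and 22 of 74 collagen-high cells. In RPKM, Rara, Rarb and Rarg stood at 5.59, 0.408 and 14.4 in basal-keratin, at 10.1, 2.43 and 9.31 in simple-keratin and at 7.06, 4.12 and 5.05 in collagen-high cells. Rara and Rarg were not exclusive, as 22 of the 25 basal-keratin cells with Rara at 10 CPM or more also had Rarg. That is 88%, near the 86.2% of basal-keratin cells without Rara at that level.

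**Figure D3:**
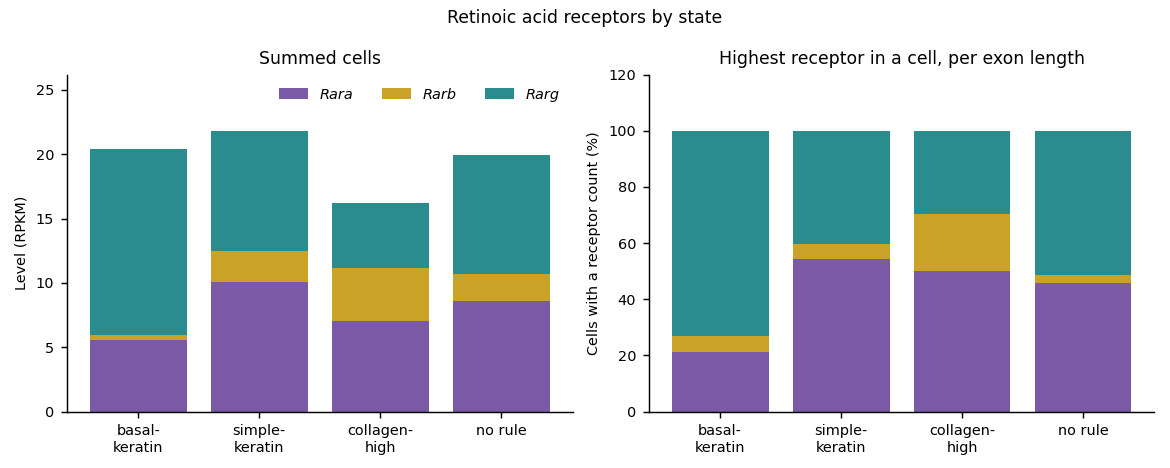
Retinoic acid receptors by state. Left, level of the summed cells (vertical axis, RPKM), stacked over Rara, Rarb and Rarg. Right, share of the cells with at least 1 receptor at 10 CPM or more in which each receptor was the highest per exon length (vertical axis, percent). Rarg takes the largest part of the basal-keratin bar, 70.6%, and 31.1% of the collagen-high bar.

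Dhrs3, which draws retinal back to retinol, followed the order of Rarg. It ranged from 0 to 158 CPM in basal-keratin cells with a median of 15.2, from 0 to 149 CPM in simple-keratin cells with a median of 0.151, and from 0 to 135 CPM in collagen-high cells with a median of 0. The shares at 10 CPM or more were 61.1% (46.9 to 74.1), 30.3% (19.6 to 42.9) and 16.5% (9.06 to 26.5). Its highest cells lay outside the rules, at up to 361 CPM, and all 6 unruled cells with Krt1 and Krt10 had Dhrs3, from 32.1 to 113 CPM. In collagen-high cells 8 of the 20 cells with Des, Myod1 or Myog and 5 of the 58 without them reached 10 CPM. Without cells holding these myogenic markers Dhrs3 was past 4-fold as lower in collagen-high cells, at -2.94 on the log2 scale against basal-keratin and -2.34 against simple-keratin cells.

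For the comparison of states, a gene was called when the summed CPM, each with 1 CPM added, differed at least 4-fold, that is by 2 or more on the log2 scale. Between simple-keratin and basal-keratin cells 3 members of the 8 tested were past 4-fold, all higher in simple-keratin cells: Aldh1a2 (log2 ratio 5.02), Crabp2 (4.86) and Rarb (2.13). Over all 15520 genes tested, 6.40% were higher and 3.61% lower past 4-fold. The median log2 ratio of the members was 1.32 and that of all tested genes 0.04. The call of Aldh1a2 rests on the 1 cell described above and was absent without it. Rarb fell short of 4-fold without the cells with blood markers (1.34), without keratin cells with Col1a2 or Lum (1.78) and without the 16 labelled cells (1.99), and also when cells were weighted equally (1.85) or thinned to 500000 counts (1.64). Crabp2 was past 4-fold under each of the alternatives tried, between 4.52 and 5.68 on the log2 scale.

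Between collagen-high and basal-keratin cells 5 of the 9 members were past 4-fold, all higher in collagen-high cells, against 9.69% of the 15656 genes tested that were higher and 5.91% lower. They were Crabp1 (log2 ratio 7.91), Aldh1a2 (5.25), Crabp2 (5.06), Rarb (2.85) and Cyp26b1 (2.67). The other members, Aldh1a3 (1.54), Rara (0.33), Rarg (-1.47) and Dhrs3 (-1.69), stayed within 4-fold. Without the cells with Krt1 and Krt10, Aldh1a3 was past 4-fold too, at 3.11 here and at 3.37 between simple-keratin and basal-keratin cells. Among all simple-keratin cells 1 cell held 62.1% of the Aldh1a3 sum, which was 3.33 CPM without it, and without the highest cell of each state the log2 ratio between these states was 1.85. Leaving out that cell together with the cells with Krt1 and Krt10 was not run. The median was 2.67, or 2.85 with Cyp26b1 at its lower bound, and that of all tested genes -0.21. Without the cell that met both rules the log2 ratio of Aldh1a2 was -0.01 and 4 members were past 4-fold.

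Between collagen-high and simple-keratin cells 2 of 9 members were past 4-fold, Crabp1 (log2 ratio 9.31) and Cyp26b1 (2.67), again higher in collagen-high cells. Of the 15976 genes tested, 8.76% were higher and 9.08% lower past 4-fold. The remaining members lay between -1.02 (Dhrs3) and 0.72 (Rarb). The comparisons share cells. Basal-keratin cells enter the first 2, simple-keratin cells the first and the last, and collagen-high cells the last 2. The cell that met both rules is on both sides of the last comparison. It held all 17912 counts of Aldh1a2 in collagen-high cells and 17912 of the 17936 in simple-keratin cells. The log2 ratio of Aldh1a2 there (0.23) thus sets that cell against itself.

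Other genes of the pathway were read from a list of 36. Of the 27 tested between simple-keratin and basal-keratin cells 5 were higher and 1 was lower past 4-fold, beside 6.40% and 3.61% of all genes tested. Of the higher genes 4 oxidise retinol or retinal. Among them are Adh1, an alcohol dehydrogenase, at 269 CPM in simple-keratin and 26.7 in basal-keratin cells (log2 ratio 3.29), and Rdh10. Rdh10, the retinol dehydrogenase of the embryo, was at 100.6 and 21.1 CPM (2.20). For Rdh10 the 11 labelled WT-KCB cells, all basal-keratin cells, summed to a higher level than the basal-keratin state, as given below. Nr2f2, a nuclear receptor counted among the retinoic acid responsive genes, had 88.2 and 6.30 CPM (3.61). Fabp5, a fatty acid binding protein that can also carry retinoic acid, was the 1 lower gene, at 35.4 CPM against 866 CPM (-4.57). Adh7 and Aldh1a1 were also past 4-fold, at under 9 CPM in simple-keratin cells.

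Of 3 uptake, binding and storage genes tested, 2 were higher past 4-fold in collagen-high than in basal-keratin cells. Stra6, the uptake receptor of retinol, had 23.2 CPM in collagen-high, 3.96 in simple-keratin and 2.002 in basal-keratin cells, and Rbp4, the retinol carrier of plasma, had 5.16 CPM in collagen-high cells and 0 counts in both keratin states. The retinoid X receptor Rxrg was at 22.6 CPM in collagen-high cells, with 0 counts in basal-keratin cells and 0.00881 CPM in simple-keratin cells, and Tgm2, a transglutaminase known to respond to retinoic acid, was at 25.2 CPM, 0.00432 and 1.61 CPM. Stra6, Rxrg and Tgm2 came from a minority of the collagen-high cells, 19, 15 and 20 of 79 at 10 CPM or more. The Stra6 values of both keratin states and the Tgm2 value of simple-keratin cells came wholly or almost wholly from 1 cell each. Of the 27 list genes tested against basal-keratin cells 6 were higher and 2 were lower past 4-fold, beside 9.69% and 5.91% of all genes. Of the 29 tested against simple-keratin cells 5 were higher and 3 lower, beside 8.76% and 9.08%. Lower against simple-keratin cells were Adh1 (5.75 CPM, log2 ratio -5.32), Nr2f2 (10.1 CPM, -3.01) and Aldh1a1 (0 counts).

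Several other genes of the list were counted in every state. Adh5 had 213, 200 and 164 CPM in summed basal-keratin, simple-keratin and collagen-high cells, and the partner receptor Rxrb 104, 97.03 and 45.7 CPM, while Rxra had 32.7, 10.2 and 11.2 CPM. None of the 5 cofactors (Ncor1, Ncoa1, Ncoa2, Ncoa3 and Nrip1) was past 4-fold in any comparison of states. The same held for Dgat1, Rdh11, Rdh13, Rdh14 and Dhrs4, and Dhrs7 was past 4-fold between collagen-high and basal-keratin cells (61.1 and 13.8 CPM). Dhrs9, Adh4 and Cyp26c1 had 0 counts in all 3 states.

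**Figure D4:**
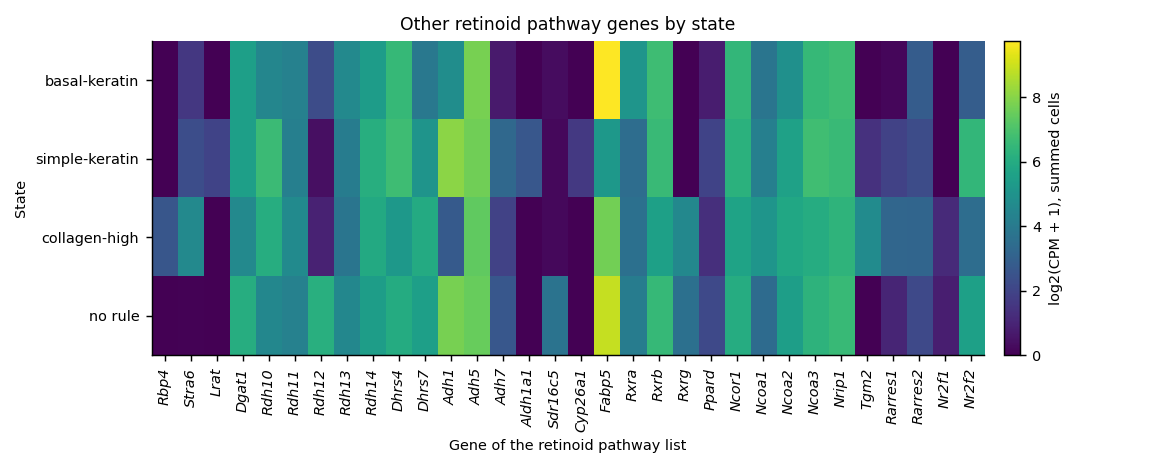
Level of the other retinoid pathway genes in the summed cells of each state (colour, log2 of CPM + 1; genes with under 1 CPM in every row are left out). Adh1 and Nr2f2 are brightest in simple-keratin cells (269 and 88.2 CPM), Fabp5 in basal-keratin cells (866 CPM), and Stra6, Rxrg and Tgm2 exceed the keratin states in collagen-high cells.

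The genes most like each member were sought over all 237 cells by the rank correlation of log2(CPM + 1), among 12389 genes at 10 CPM or more in at least 20 cells. Crabp1 had the closest companions, Pth1r (rho 0.93), Twist2 (0.93) and the predicted gene Gm29100 (0.93). Pth1r, the receptor of parathyroid hormone related peptide, and Twist2 are dermal genes, and over the 79 collagen-high cells alone the values were 0.86, 0.85 and 0.86. Crabp2 was most like Mfap2 (0.59), Dpysl3 (0.58) and Dlk1 (0.56), and Dhrs3 like Perp (0.53), a desmosomal protein and p63 target. For Cyp26b1 the nearest were Gm15677 (0.59), Abca8a (0.58) and Tmem150c (0.57), with a count of Cyp26b1 in 27 cells only. Aldh1a3, Rara, Rarb and Rarg had no gene at 0.5 or more. The points share 1 pool of cells and unequal depth, and the differences between states enter each value.

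By the median, keratin cells held fewer members at once than collagen-high cells. Basal-keratin cells held a median of 2 members at 10 CPM or more (0 to 4), simple-keratin cells 2 (0 to 5) and collagen-high cells 4 (1 to 6). Of the pairs of members, Crabp2 and Dhrs3 are given as an example chosen after the values were seen. In simple-keratin cells 5 of the 28 cells with Crabp2 and 15 of the 38 without it had Dhrs3 at 10 CPM or more (17.9% and 39.5%; rho -0.32 over 66 cells), and in collagen-high cells 15.9% and 18.75% did (rho 0.03 over 79 cells), both given as a description of these cells.

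The 16 labelled cells of embryo WT01 allowed 1 comparison by label, K17-high cells (WT-KCP) against basal layer. The summed level of 5 periderm markers, Krt17 among them, had medians of 3389 CPM in WT-KCP and 313 CPM in WT-KCB cells. It was 2711 CPM in the WT-KCI cell. As the label is itself K17 high, a sum that holds Krt17 is no separate check of it. All 11 WT-KCB and all 4 WT-KCP cells met the basal-keratin rule, and the WT-KCI cell met none. Aldh1a2, Aldh1a3 and Cyp26b1 had 0 counts in each of the 16 cells. Rarg had 4.56, 23.95, 73.8 and 162 CPM in the 4 WT-KCP cells and 8.97 to 99.1 CPM, median 56.5, in the WT-KCB cells. Rara was at 7.79, 58.3, 72.1 and 74.4 CPM in WT-KCP cells and at 0 to 69.8 CPM, median 4.89, in WT-KCB cells. For Rara 2 of the 4 WT-KCP cells lay above all 11 WT-KCB cells and the groups overlapped, and for Rarg the groups were intermixed. Dhrs3 was at 0.445, 4.96, 27.7 and 41.6 CPM in WT-KCP cells and at 0 to 113 CPM, median 13.05, in WT-KCB cells. The WT-KCI cell had 43.5 CPM of Rarg, 9.22 of Rara and 57.6 of Dhrs3, within the range of the WT-KCB cells for each gene. Crabp2 was at 57 CPM (400 counts) in WT-KCP replicate 2 and at 0 in the other 15 cells. Replicate 2 was 1 of the 11 basal-keratin cells with Col1a2 or Lum at 10 CPM or more, and the part of these genes was not tested. Crabp1 was at 0, 0, 12.8 and 18.6 CPM in the WT-KCP cells. Of the 11 basal layer cells 2 held it, at 16.8 and 68.4 CPM. Rarb had 0 counts in the 4 WT-KCP cells and was found in 2 of the 11 basal layer cells, at 15.4 and 1.22 CPM.

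Over the summed cells 1 of the 5 members tested was past 4-fold, Crabp2 (log2 ratio 3.88, higher in WT-KCP), against 6.58% of the 14540 genes tested that were higher and 9.70% lower. Rara followed at 1.59 (49.9 and 15.9 CPM), with Rarg at 0.36, Crabp1 at -0.07 and Dhrs3 at -0.45, and the median was 0.36 against -0.04 for all tested genes. Without WT-KCP replicate 2 no member was past 4-fold, and without replicate 3 Rara was past 4-fold too (2.04). In WT-KCB cells 1 cell held 40.9% of the Rara sum, which was 9.78 CPM without it, and without the highest cell of each group Rara was past 4-fold (2.01) and Crabp2 was not. From the pathway list 0 genes were higher and 3 of 20 were lower in WT-KCP cells: Dgat1 (1.10 and 71.5 CPM, log2 ratio -5.11), Rdh10 (1.78 and 55.7 CPM, -4.35) and Dhrs7 (0.411 and 14.7 CPM, -3.48). With cells of 1 embryo, these are differences between those cells and not between K17-high and basal layer cells at large.

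**Figure D5:**
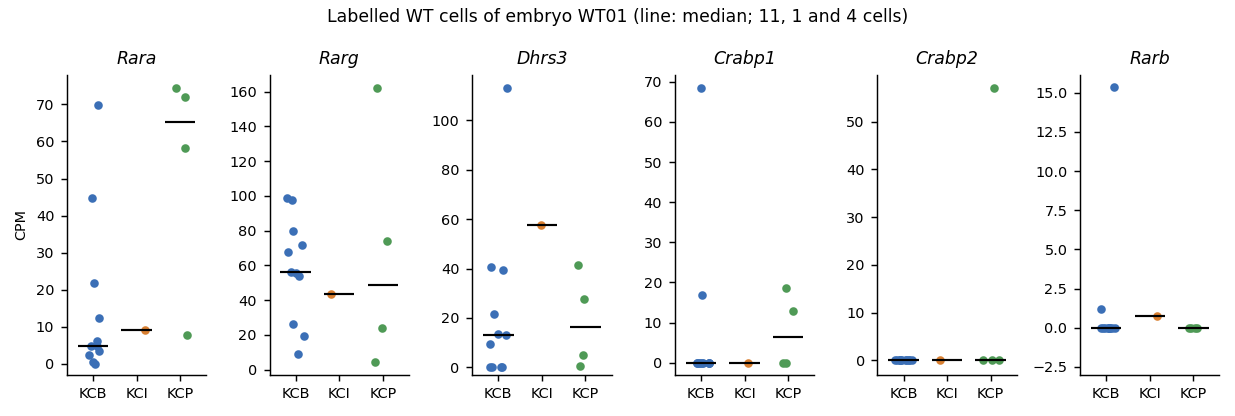
Levels of 6 of the 9 genes in the labelled WT cells of embryo WT01 (vertical axis, CPM; each panel has its own scale), with points for the 11 WT-KCB, 1 WT-KCI and 4 WT-KCP cells and a line at the median. Rara lies at 58.3 to 74.4 CPM in 3 of the 4 WT-KCP cells, and Crabp2 is above 0 in 1 cell.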

How the data were processed

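Single cells were sequenced as SMART-Seq HT and Nextera XT libraries without molecular identifiers. The authors aligned reads to mm10 with HISAT2 (Galaxy 2.1.0+galaxy5), counted them with featureCounts (Galaxy 1.6.4+galaxy2) on Ensembl release 97 and deposited 1 table of estimated counts per gene, some not whole. The submitters' processing notes also name Trimmomatic and DESeq2 1.36.0. Strand and multimapping settings are not given in the sources used here. Here counts were rounded and divided by the column total (CPM). The 221 columns not paired with a labelled cell entered by state alone. Cells of a group were summed, and a gene was tested where its mean CPM over both groups was at least 1. Intervals are exact (Poisson or Clopper-Pearson, 95%), and a count of 0 allows up to 3 counts. The comparison was tested on simulated data, with changes planted only in genes at 20 CPM or more. The simulation does not cover members below that level or carried by 1 cell. Members, lists, states and tests were chosen with earlier results of these data known. Named were the 9 members, genes of the list of 36 at 20 CPM or more in a state, and up to 3 genes nearest each member at a rho of 0.5 or more. Of the planned pathway list, 2 genes are not reported here. Pathway genes named below that level were chosen after their values were seen. Alternatives were the scaling, pseudocount, filter, state cutoffs, depth and set of cells. The work used matplotlib 3.10.9, scipy 1.17.1, pandas 2.3.3, numpy 2.4.6 and Python 3.11.15.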

Additional observations from a re-analysis of the deposited data

Results flagged for a closer look

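Crabp2 in the WT-KCP cells of embryo WT01 had 1 cell far from the rest: 3 cells were at 0 and 1 at 57 CPM, so the gap to the nearest cell divided by the range was 1, above the critical value of 0.829 for 4 values. With 3 cells at 0 the ratio is 1 whatever the value of the other cell, so it says only that Crabp2 was counted in 1 of the 4 cells. The cell at 57 CPM also had Col1a2 or Lum at 10 CPM or more. In all, 5 members were examined in the 4 WT-KCP cells. The chance rate of about 1 group in 20 does not hold for a gene at 0 in most cells.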

How the results depend on the processing

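With a pseudocount of 0.1 CPM, 5 members were past 4-fold between simple-keratin and basal-keratin cells, Aldh1a3 (higher) and Crabp1 (lower) being added. Leaving out 1 WT-KCP cell at a time gave 0 to 2 members in the comparison with WT-KCB cells. Without the cell that met both rules the log2 ratio of Aldh1a2 between collagen-high and basal-keratin cells was -0.012. The other alternatives kept each count of members within 1.5 times its value. Over 558 values of single members, 325 stayed within the counting interval, 232 moved beyond it and 1 turned, while 12 calls were lost and 10 gained. Scaling by size factors shifted the median of all genes by 0.13, 0.24 and 0.10 in the comparisons of states, and no member changed sign. The alternatives without cells holding blood, muscle, fibroblast or suprabasal markers and without the 16 labelled cells were chosen after seeing the data. No paired analysis was possible because the labelled cells come from 1 embryo and replicate numbers only name cells.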

Other observations

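The cell with Aldh1a2 at 2510 CPM had 7136465 counts and 9691 genes, and was singled out after its values were seen. It held Krt8 (169 CPM), Krt18 (192 CPM), Krt19 (292 CPM) and Krt7 (468 CPM) beside Col1a1 (540 CPM) and Col3a1 (3542 CPM). Epcam was at 2.52 CPM, Cdh1 at 1.68, Lum at 0.280, and Twist2 and Pdgfra at 0. The transcription factors Foxf1 (1078 CPM), Foxf2 (183 CPM) and Tcf21 (168 CPM), known from visceral mesenchyme, were at 41.4, 0.268 and 0 CPM in the highest of the other cells. Of the members beside Aldh1a2, Crabp2 was at 77.3 CPM, Rarb at 38.3 and Rara at 5.61, and the others at 0. In all, 112 genes at 100 CPM or more were higher in this cell than in any other. The same count was not made for other cells, each of which can be the highest for some genes. Whether 112 is unusual is therefore not known.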
